A study of Mus musculus with 8 samples.

Results

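The genes described here are 8 secreted inhibitors of Wnt signalling, Dkk1, Dkk2, Dkk3, Sfrp1, Sfrp2, Sfrp5, Frzb and Wif1, followed in the mouse optic fissure. They were taken by gene symbol from the array's annotation, which gave 16 probe sets of 45101 on the array and 8 of 18193 annotated genes. The fissure is a cleft on the underside of the optic cup that fuses shut as the eye forms. It was isolated by laser capture microdissection, and each array carried RNA of 3 pooled wild-type C57BL/6 embryos. Embryonic day 10.5 (E10.5) had 3 arrays, E11.5 had 3 and E12.5 had 2, named by the letters A to C, and stage was the only factor that differed between them by label. The labels disagree on whether the embryos of a pool shared a litter.

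Wnt proteins signal by joining a Frizzled receptor to the co-receptor Lrp5 or Lrp6, which stabilises beta-catenin and switches on target genes. Secreted inhibitors act outside the cell in different ways. Dkk1 and Dkk2 bind the Lrp co-receptors, whereas the Sfrp proteins, Frzb among them, and Wif1 bind the Wnt proteins themselves. In the developing eye, canonical Wnt signalling is known for maintaining the pigment epithelium and for patterning the dorsal and peripheral optic cup, and in mice Sfrp1 and Sfrp2 are needed for normal optic cup patterning.

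Both the Dkk group and the Sfrp group held 1 gene that was lower and 1 that was higher at E12.5. Dkk1 and Sfrp1 were lower at E12.5 than at E10.5, and Dkk3 and Sfrp2 were higher. Of the other members, Dkk2, Sfrp5 and Frzb did not pass the test in any comparison of 2 stages, and Wif1 was too dim to be tested. No member passed between E11.5 and E10.5. The test was a linear model of stage fitted with limma to 27022 probe sets, after the dimmest 40% (mean log2 signal below 3.94) had been left out. That filter kept 13 of the 16 probe sets and 7 of the 8 genes. A gene was called where its brightest probe set had an adjusted p below 0.05.

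Sequences around a transcript start are shown for Dkk1 and Sfrp2, the called members with a window in the table used. Each window runs from 250 bases before to 50 bases after a RefSeq start, with build GRCm38.p6, and 6 of the 8 members had one, Dkk3 and Sfrp1 being those without. The Dkk1 window is at the outer end of its gene. The Sfrp2 window is at a start 571 bases inside the annotated gene and lies wholly within it, so it is not sequence upstream of that gene. Capitals mark motifs searched on both strands. The core of a site for TCF/LEF, the factors through which beta-catenin acts, was searched as CTTTGA. The letters TATAAA stood for the TATA box. The letters GGGCGG stood for the GC box.
Dkk1, chr19:30549447-30549746, minus strand: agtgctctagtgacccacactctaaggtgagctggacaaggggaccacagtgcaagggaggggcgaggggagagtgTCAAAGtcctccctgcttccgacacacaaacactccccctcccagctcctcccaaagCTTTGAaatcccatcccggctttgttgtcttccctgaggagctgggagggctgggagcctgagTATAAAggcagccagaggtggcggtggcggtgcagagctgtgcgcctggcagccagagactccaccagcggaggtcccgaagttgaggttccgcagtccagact
Sfrp2, chr3:83766071-83766370, plus strand: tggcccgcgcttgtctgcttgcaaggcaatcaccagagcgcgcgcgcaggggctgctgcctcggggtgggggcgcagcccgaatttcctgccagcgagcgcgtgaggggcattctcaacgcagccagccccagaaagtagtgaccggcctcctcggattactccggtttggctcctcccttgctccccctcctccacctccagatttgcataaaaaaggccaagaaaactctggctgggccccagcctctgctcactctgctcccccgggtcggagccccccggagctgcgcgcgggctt

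The Dkk1 window held 2 TCF/LEF cores, 1 on each strand, and 1 TATA box, and the Sfrp2 window held none of the 3 motifs. Of all 32851 windows of this length, 16.0% held a TCF/LEF core, 13.6% a TATA box and 35.7% a GC box. Among the other members, Frzb had 1 TCF/LEF core and Dkk2, Sfrp5 and Wif1 had none. CpG dinucleotides numbered 9 in the Dkk1 window and 22 in the Sfrp2 window, against a median of 7 over all windows. These matches describe the letters of the windows and say nothing of binding.

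Dkk1, the Lrp-binding inhibitor that is needed for head formation in the mouse, was lower at E12.5 than at either earlier stage. Its gene lies on chromosome 19 (30545876 to 30549496, GRCm38.p6). On its brighter probe set (1420360_at) the log2 signal was 10.43, 9.27 and 8.79 on the E10.5 arrays, 9.04, 9.03 and 9.56 on the E11.5 arrays, and 6.56 and 6.23 on the E12.5 arrays. Both E12.5 arrays lay below every earlier array, and the E10.5 and E11.5 arrays overlapped. The change from E11.5 was -2.82 (SE 0.42, 7.04-fold lower, adjusted p = 0.00585), and that from E10.5 was -3.10 (SE 0.42, 8.59-fold lower, adjusted p = 0.00208). In bulk tissue such as this, fewer cells of a type and less RNA per cell cannot be told apart.

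The dimmer Dkk1 probe set (1458232_at) showed the same order of stages. It read 9.12, 7.63 and 7.21 at E10.5, 7.45, 7.63 and 8.12 at E11.5, and 4.51 and 3.58 at E12.5, so that 1 E12.5 array lay below the filter value of 3.94. Its change was -3.69 (SE 0.49, adjusted p = 0.00262) from E11.5 and -3.94 (SE 0.49, adjusted p = 0.00103) from E10.5. E10.5 A was the highest array on both probe sets. Of 20 alternative settings, 1 that weighted the arrays did not converge, and the ranges of adjusted p given here and below leave it out. Settings without one E12.5 array leave that stage with 1 array, which is assumed to vary like the arrays of the other stages. Without E12.5 B, the comparison of E12.5 with E11.5 on the brighter probe set gave a similar change of -2.65 and an adjusted p of 0.11, the highest of 19 settings, whose lowest was 0.00129. The comparison of E12.5 with E10.5 stayed called in all 19, with changes between -3.52 and -2.42 and adjusted p between 0.000838 and 0.0404.

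Dkk3, the divergent member of the Dkk group, expressed in retina, was higher at E12.5. The gene lies on chromosome 7 (112116019 to 112159482). On its brighter probe set (1448669_at) it read 9.32, 8.55 and 7.85 at E10.5, 8.49, 9.21 and 9.46 at E11.5, and 11.50 and 11.83 at E12.5. The E12.5 arrays lay above all 6 others, while E10.5 and E11.5 overlapped. The change was 2.61 (SE 0.43, 6.11-fold, adjusted p = 0.0108) from E11.5 and 3.09 (SE 0.43, 8.54-fold, adjusted p = 0.00254) from E10.5.

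The other Dkk3 probe set (1417312_at) varied less at E10.5, with 7.55, 7.53 and 7.71, and read 7.56, 8.01 and 8.40 at E11.5 and 10.06 and 10.39 at E12.5. It was called in the same comparisons, at 2.23 (SE 0.30, adjusted p = 0.00281) from E11.5 and 2.63 (SE 0.30, adjusted p = 0.000652) from E10.5. Without E12.5 B the comparison of E12.5 with E11.5 on the brighter probe set lost its call (2.45, adjusted p = 0.176, with a lowest of 0.00326 over the 19 settings). That of E12.5 with E10.5 kept it in all 19, with changes between 2.73 and 3.47 and a highest adjusted p of 0.0431.

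Dkk2, an Lrp-binding member made by the periocular mesenchyme, the tissue around the optic cup, read 4.60, 3.82 and 3.65 at E10.5, 5.0, 5.65 and 7.13 at E11.5, and 5.87 and 4.21 at E12.5 on its single probe set (1420512_at). The gene lies on chromosome 3 (132085266 to 132180304). All 3 E11.5 arrays lay above all 3 E10.5 arrays, and the E12.5 arrays overlapped with both. The difference between E11.5 and E10.5 was 1.90 (SE 0.52, 95% interval 0.77 to 3.04), which did not pass (adjusted p = 0.153, between 0.118 and 0.418 over 18 alternative settings). The spread was wide, with an SD of 1.09 (n = 3) at E11.5 and 1.18 (n = 2) at E12.5.

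**Figure D1:**
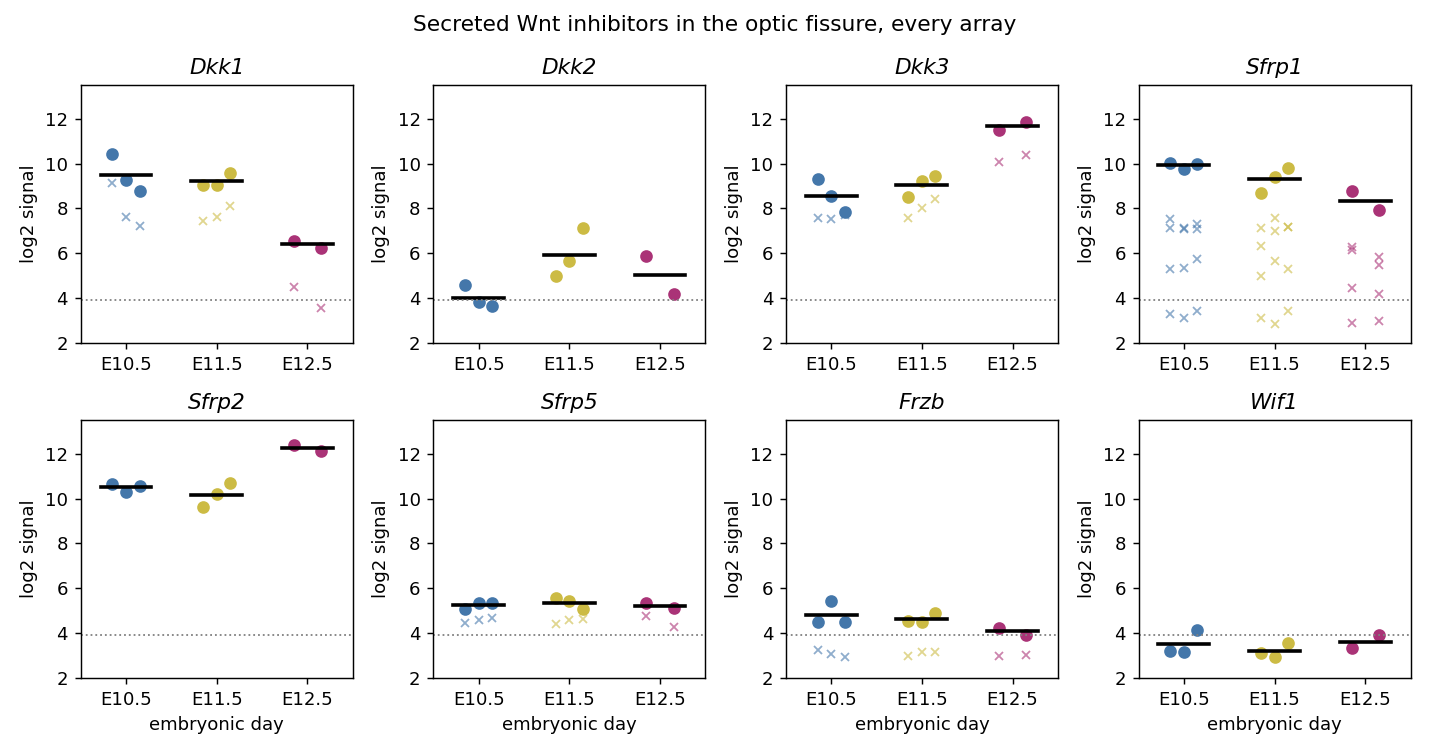
Log2 signal (vertical axis) of the 8 genes on each array, by embryonic day (horizontal axis). Filled circles are the arrays on the brightest probe set of the gene, bars their means, crosses the other probe sets of the gene, and the dotted line the filter value of 3.94. Dkk1 sits at 6.56 and 6.23 at E12.5, below all earlier arrays, and Dkk3 and Sfrp2 sit above all earlier arrays.

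Sfrp1, a Wnt-binding inhibitor of the optic cup, was lower at E12.5 than at E10.5 on each of its 4 tested probe sets. Its gene lies on chromosome 8 (23411383 to 23449632). The brightest (1428136_at) read 10.03, 9.76 and 9.96 at E10.5, 8.71, 9.41 and 9.81 at E11.5, and 8.78 and 7.93 at E12.5. The E12.5 arrays lay below all E10.5 arrays, but E12.5 A was just above E11.5 A. The change from E10.5 was -1.57 (SE 0.38, 2.96-fold lower, adjusted p = 0.0379), and the difference from E11.5 was -0.96 (SE 0.38, adjusted p = 0.233), which did not pass.

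The other 3 tested Sfrp1 probe sets changed by -1.27, -1.27 and -1.14 between E12.5 and E10.5, with adjusted p between 0.0223 and 0.0367. One of them (1438620_x_at), whose suffix marks probes that can match other transcripts, was also called against E11.5, at -1.23 (SE 0.27, adjusted p = 0.0422). The fifth (1460187_at) stayed between 2.86 and 3.45 on all 8 arrays and was too dim to be tested. The call on the brightest probe set was weak, since it was lost in 9 of 19 alternative settings while the sign held in all. The adjusted p was 0.0832, 0.0534 and 0.0609 without E10.5 A, B and C in turn, 0.0752 without E11.5 B, and 0.0575 and 0.51 without E12.5 A and B, against a lowest of 0.0128 over the 19. With the mean of the tested probe sets in place of the brightest one, the change was -1.31 (adjusted p = 0.0138).

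Sfrp2, an inhibitor of the same kind made by retinal progenitors, was higher at E12.5. Its gene lies on chromosome 3 (83765750 to 83774314), and the array has 1 probe set for it (1448201_at). The log2 signal was 10.65, 10.27 and 10.57 at E10.5, 9.63, 10.20 and 10.70 at E11.5, and 12.37 and 12.10 at E12.5. Both E12.5 arrays lay above all earlier ones, and E11.5 overlapped with E10.5. The change was 2.06 (SE 0.37, 4.16-fold, adjusted p = 0.0155) from E11.5 and 1.74 (SE 0.37, 3.33-fold, adjusted p = 0.023) from E10.5.

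Some Sfrp2 calls were lost when 1 array was left out, while the size of the change stayed similar. Against E11.5 the adjusted p was 0.0846 without E11.5 B, 0.117 without E12.5 A and 0.171 without E12.5 B, and against E10.5 it was 0.0544, 0.17 and 0.19 in the same order, while the changes stayed between 1.44 and 2.32 and between 1.60 and 1.89. The lowest adjusted p over the 19 settings were 0.00249 against E11.5 and 0.000356 against E10.5. Quantile normalization, which gives all arrays the same distribution of values, brought the difference from E11.5 to its lowest value of 1.44, still called (adjusted p = 0.00249).

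Sfrp5, a close relative of Sfrp1, stayed within 5.06 to 5.59 on all 8 arrays on its brighter probe set (1436075_at). The stages overlapped in every comparison. The difference of E12.5 from E10.5 was -0.03 (95% interval -0.53 to 0.46), and that on the other probe set (1423023_at) was -0.05 (95% interval -0.47 to 0.38). The gene lies on chromosome 19 (42197971 to 42202252).

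Frzb, the member of the Sfrp group first known from cartilage, was dim, with 4.49, 5.44 and 4.48 at E10.5, 4.53, 4.52 and 4.91 at E11.5, and 4.25 and 3.92 at E12.5 on probe set 1416658_at. Both E12.5 arrays lay below all others, but the difference from E10.5 did not pass (-0.72, SE 0.29, 95% interval -1.34 to -0.09, adjusted p = 0.17). Its other probe set (1448424_at) read at most 3.26 on any array. The gene lies on chromosome 2 (80411970 to 80447396).

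Wif1, which binds Wnt proteins through its own WIF domain, read between 2.94 and 4.15 on all 8 arrays (1425425_a_at). Its mean of 3.42 was below the filter value. Tested without the filter, its largest difference between 2 stages was 0.42 between E12.5 and E11.5 (SE 0.29, adjusted p = 0.603). The gene lies on chromosome 10 (121034004 to 121100642). Such a dim signal does not show whether the transcript was absent.

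**Figure D2:**
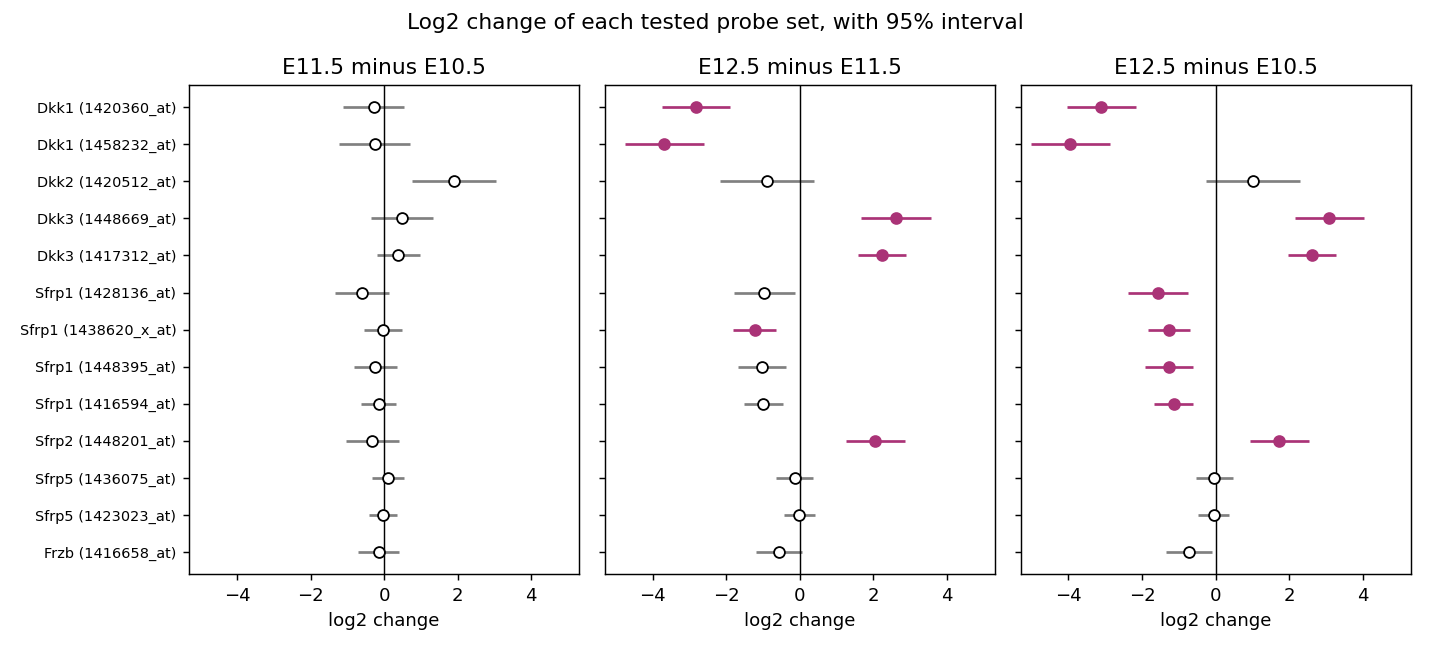
Log2 change (horizontal axis) of the 13 tested probe sets in the 3 comparisons of stages, later minus earlier. Points are estimates, bars 95% intervals, and filled points have an adjusted p below 0.05. None is filled between E11.5 and E10.5, 6 are filled between E12.5 and E11.5, and 9 are filled between E12.5 and E10.5.

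Counted by gene, 3 of 7 tested members passed between E12.5 and E11.5, 2 higher and 1 lower, where 1.82% of all tested probe sets did (1.62% higher, 0.2% lower). Between E12.5 and E10.5, 4 of 7 passed, 2 higher and 2 lower, against 4.64% of all probe sets (3.08% higher, 1.56% lower). Between E11.5 and E10.5, 0 of 7 passed in limma, against 0.126% of all probe sets (0.0962% higher, 0.0296% lower), and 1 of 7, Dkk2, had an unadjusted p below 0.05, as did 19.4% of all probe sets. The median log2 change of the 7 genes in these comparisons was -0.57, -0.03 and -0.15, beside 0.10, -0.08 and -0.18 over all tested probe sets. Of the 7 genes, 2 were higher and 5 lower in the first of these comparisons by sign alone, 3 higher and 4 lower in the second, and 3 higher and 4 lower in the third. By arrays alone, the brightest probe set had no overlap between E12.5 and E11.5 for 4 of 7 genes, between E12.5 and E10.5 for 5 of 7, and between E11.5 and E10.5 for 1 of 7. Among all tested probe sets that share was 43.7% (29.6% higher, 14.1% lower), 45% (19.3% higher, 25.7% lower) and 22.9% (3.57% higher, 19.3% lower), so lack of overlap was common. The members were chosen with earlier results of these data known, so these counts describe them only.

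In the F test for any difference among the stages, 3 of 7 members passed, Dkk1 (adjusted p = 0.00409), Dkk3 (0.00532) and Sfrp2 (0.0217), against 2.92% of all probe sets, and Sfrp1 did not on its brightest probe set (0.0844). Setting E11.5 against the average of both other stages called 0 of 7 in limma, against 0.241% of all probe sets (0.0629% higher, 0.178% lower), with 4 of 7 at an unadjusted p below 0.05, against 16.6% of all probe sets. Dkk1 was 1.26 above that mean (SE 0.34, adjusted p = 0.203), and it passed after quantile normalization (1.75, adjusted p = 0.0395) and without E10.5 A (1.50, adjusted p = 0.0483). Its adjusted p lay between 0.0395 and 0.568 over 18 alternative settings.

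Differences between members within an array do not depend on a constant shift of its log2 signal, but a stretch of its log2 scale would not cancel. The pairs below were chosen after their values were seen, so they carry no test. Dkk3 minus Dkk1, on the brightest probe sets, was -1.11, -0.72 and -0.94 at E10.5, -0.55, 0.18 and -0.10 at E11.5, and 4.95 and 5.59 at E12.5. This log2 difference averaged 5.27 ± 0.46 (SD, n = 2) at E12.5 and -0.16 ± 0.37 (SD, n = 3) at E11.5. Sfrp2 minus Sfrp1 was 0.62, 0.51 and 0.61 at E10.5, 0.93, 0.78 and 0.88 at E11.5, and 3.59 and 4.17 at E12.5. Within each pair the stage means thus moved apart by 5.43 and 3.02 between E12.5 and E11.5, while the E11.5 and E10.5 means differed by 0.77 and 0.29. Only the change of a difference is meaningful here, since the levels of different probe sets cannot be compared.

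**Figure D3:**
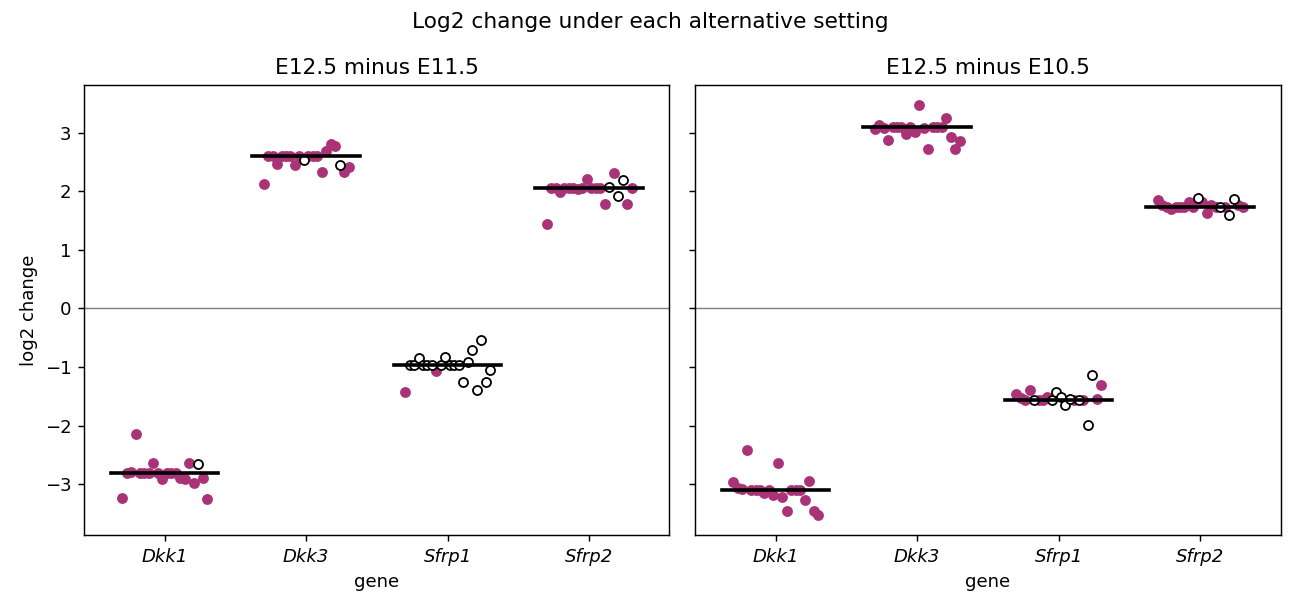
Log2 change (vertical axis) of the 4 called genes (horizontal axis) in both comparisons of E12.5 under the 20 alternative settings, the array weights that did not converge included. Circles are settings, filled where the adjusted p is below 0.05, and bars mark the reported values. No circle crosses 0, and the open circles are most frequent for Sfrp1.

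Across the arrays as a whole, medians lay between 4.37 and 4.48, while the 99th percentile of log2 signal was 12.5 to 12.6 at E12.5, 11.2 to 12.4 at E11.5 and 12.5 to 12.9 at E10.5. The 3 prime minus 5 prime log2 signal of Gapdh, a measure of how complete the amplified RNA was, lay between 4.78 and 5.17 at E12.5, between 3.35 and 4.63 at E11.5 and between 4.19 and 4.71 at E10.5. E12.5 thus did not overlap with either stage in it. The same measure of Actb lay between 6.88 and 7.21 at E12.5, between 5.45 and 6.61 at E11.5 and between 6.83 and 6.96 at E10.5, where E12.5 and E10.5 overlapped. The part of RNA completeness in the changes of Dkk1, Dkk3, Sfrp1 and Sfrp2 was not tested. E10.5 C and E11.5 A lay farthest from their stages on the leading principal components, and without both the same 4 genes passed between E12.5 and E10.5. Arrays of a stage correlated at 0.957 to 0.989 and none were identical. Nothing says beyond the label of biological replicates that pools were independent, and the small number of arrays limits precision.

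The captured tissue carried the ventral optic cup factors Vax1 and Vax2, homeodomain proteins of the ventral eye, at mean log2 signals of 7.88 and 9.84 at E12.5, 7.77 and 8.95 at E11.5, and 8.88 and 8.86 at E10.5. The summed signals of some marker lists differed between stages, which in bulk tissue does not by itself show a change of cell makeup. The summed linear signal of 11 measured retinal progenitor markers was 24800 to 29000 at E12.5, against 5500 to 10500 at E11.5 and 11600 to 14000 at E10.5, and 4 of the 11 rose between E12.5 and E11.5 with none falling. Between E12.5 and E10.5, 3 of the 11 rose and 8 did not pass. Among those 8, Six3, Six6 and Lhx2 averaged 11.54, 11.75 and 9.78 at E12.5, against 11.57, 11.67 and 9.90 at E10.5. The summed linear signal of 12 retinal neuron markers was 4550 to 18100 at E12.5, against 182 to 208 at E11.5 and 213 to 220 at E10.5, with 8 of 12 rising between E12.5 and E11.5. Of those that rose, Atoh7, Neurod1, Neurog2 and Dcx averaged below the filter value at both earlier stages. They passed the filter only through E12.5, so the size of their rise is uncertain. Sfrp2 and Dkk3 were high on the same E12.5 arrays, and the part of cell makeup in their changes was not tested. The neuron markers summed to 18100 on E12.5 B and 4550 on E12.5 A. On those arrays, in that order, Dkk3 read 11.83 and 11.50 and Sfrp2 read 12.10 and 12.37.

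The periocular mesenchyme list was set beside Dkk2, with 14 of its 15 markers measured and 11 passing the filter. Its summed linear signal was 1070, 1350 and 1890 on E11.5 A, B and C, against 426, 521 and 570 on E10.5 A, B and C, and 1660 and 1040 on E12.5 A and B. At E11.5 and E12.5 the array with the larger sum also had the higher Dkk2 signal, whereas at E10.5 the order was opposite. Such an order was not particular to this list. The 99th percentile of log2 signal of the arrays had the order of Dkk2 at E11.5 and E12.5 too. It was 11.19, 11.83 and 12.38 on E11.5 A, B and C, and 12.58 and 12.47 on E12.5 A and B. At E10.5 it was 12.93, 12.55 and 12.88 on A, B and C, which is not the order of Dkk2. The part of array-wide signal in these orders was not tested. The ventral optic cup sums followed the order of Dkk2 at all 3 stages. They were 8750, 6570 and 5680 on E10.5 A, B and C, 3600, 5410 and 7590 on E11.5 A, B and C, and 7060 and 3860 on E12.5 A and B. Between E11.5 and E10.5, 3 of the 11 kept mesenchyme markers rose, Ogn by 3.82, Postn by 3.15 and Dcn by 1.48, all matrix proteins, and none fell. Ogn read 3.10, 3.09 and 3.11 at E10.5, below the filter value, and passed the filter only through the later stages. The size of its rise is thus uncertain. Col1a1, Twist1 and Eya2 were below the filter value. The summed signal of 10 pigment epithelium markers was 4120, 6680 and 9600 on E11.5 A, B and C, against 6170, 3480 and 3670 on E10.5 A, B and C, and 3 of the 10 rose between those stages, Tyr, Gpr143 and Oca2, genes of melanin formation. Tyr and Gpr143 averaged 3.77 and 3.86 at E10.5, below the filter value, and passed the filter only through the later stages. The size of their rise is thus uncertain. The part of these tissues in the Dkk2 difference was not tested.

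**Figure D4:**
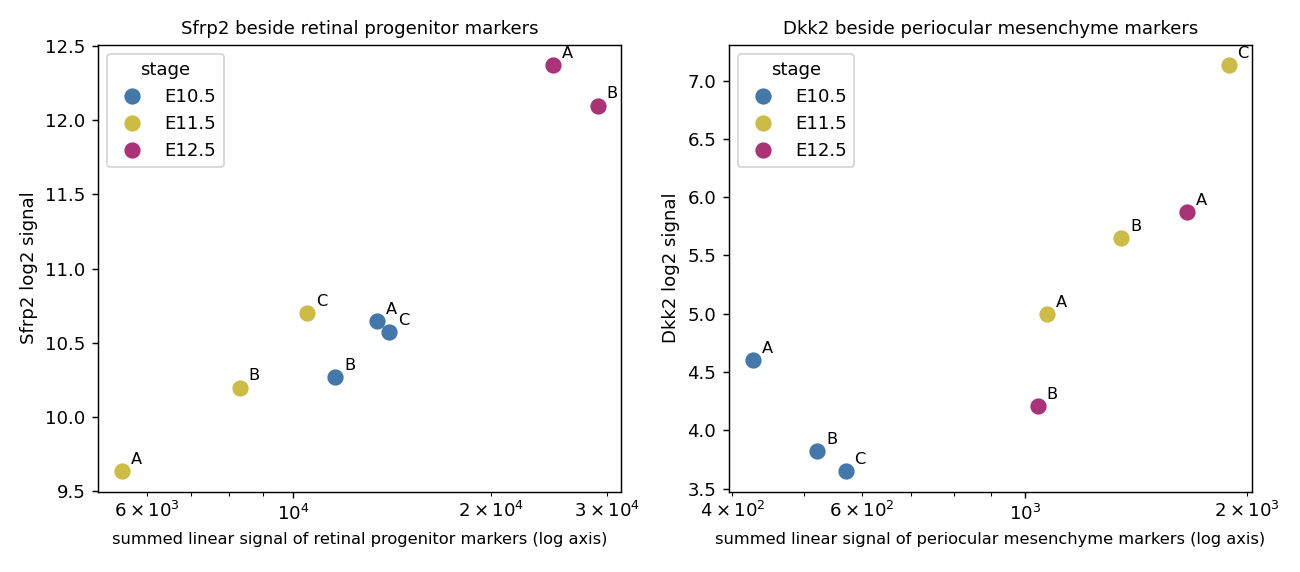
Log2 signal of Sfrp2 and Dkk2 (vertical axes) against the summed linear signal of the retinal progenitor and periocular mesenchyme markers (horizontal log axes), 1 point an array, with its letter, coloured by stage. For Sfrp2 both E12.5 arrays lie at sums of 24800 and 29000, apart from all others, and for Dkk2 the highest array is E11.5 C at a sum of 1890.

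Other cell types were also checked. Of the kept markers, 0 of 6 endothelial, 0 of 6 macrophage and 0 of 5 surface ectoderm genes passed in any comparison of stages by limma. With 0.126% to 4.64% of all tested probe sets called in these comparisons, such counts say little. Summed linear signals of 10 surface ectoderm markers were 708 to 966 at E11.5, 330 to 405 at E10.5 and 465 to 524 at E12.5. Those of 10 endothelial markers were 369 to 372 at E12.5, 272 to 306 at E11.5 and 270 to 346 at E10.5. Those of 10 macrophage markers were 1020 to 1450, 720 to 807 and 475 to 1360 in the same order. Of 7 lens markers, Cryab, a small heat shock protein, was higher at E12.5 and at E11.5 than at E10.5, and of 8 erythroid markers the embryonic globin Hbb-bh1 was lower at E12.5 than at E11.5 and E10.5. Of 7 ventral optic cup markers, 1 fell between E12.5 and E11.5 and 2 between E12.5 and E10.5. Both comparisons included Ntn1, which encodes the guidance protein netrin-1 and fell by 2.47 from E11.5 (SE 0.30, adjusted p = 0.00158). The summed signal of all 7 ventral optic cup markers overlapped among the stages, at 3860 to 7060 at E12.5, 3600 to 7590 at E11.5 and 5680 to 8750 at E10.5.

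Other genes of the pathway were counted in lists chosen by role. Of 10 tested Wnt ligands, 3 passed between E12.5 and E10.5. Wnt5a, a mainly non-canonical ligand, was higher by 1.82 (SE 0.41, adjusted p = 0.0298), whereas Wnt5b was lower, at -2.19 (SE 0.35, adjusted p = 0.00535), as was Wnt8b, at -2.42 (SE 0.51, adjusted p = 0.0236). Wnt8b, a ligand of the early forebrain, read 8.04 on E10.5 C and 5.60 and 6.40 on the other E10.5 arrays, against 4.23 and 4.30 at E12.5. None of the 10 passed between E12.5 and E11.5 in limma.

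Of 15 receptors and co-receptors, 1 rose between E12.5 and E11.5, the retinal receptor Fzd5, by 2.05 (SE 0.39, adjusted p = 0.0218), with 12.85 and 12.88 on the E12.5 arrays and 10.19, 10.99 and 11.25 on the E11.5 arrays. At E10.5 it read 12.50, 12.20 and 12.07, so that all E11.5 arrays lay below all others. However, none of the 15 passed between E11.5 and E10.5, or for E11.5 against the average of both other stages. The upper end of the array-wide log2 signal was also lowest on the E11.5 arrays, and its part in the Fzd5 difference was not tested. Between E12.5 and E10.5, 2 of 15 fell, Ror2, a receptor for Wnt5a, at -1.77 (SE 0.34, adjusted p = 0.0147), and Fzd8 at -1.26 (SE 0.31, adjusted p = 0.0401).

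Of 15 other extracellular modulators, 3 passed between E12.5 and E10.5. Draxin, a guidance protein that also inhibits Wnt signalling, was higher by 1.90 (SE 0.23, adjusted p = 0.000937) and also by 1.28 from E11.5 (SE 0.23, adjusted p = 0.0171). It read 7.27 and 7.42 at E12.5, against 5.87, 5.99 and 6.35 at E11.5 and 5.47, 5.43 and 5.43 at E10.5, with no overlap among the stages. Sostdc1, a secreted antagonist of BMP and Wnt, was higher by 2.07 (SE 0.51, adjusted p = 0.0404), and Gpc4, a cell surface proteoglycan, was lower, at -1.92 (SE 0.38, adjusted p = 0.0178). In the F test 5 of the 15 passed, against 2.92% of all probe sets. They were these 3 with Wls (adjusted p = 0.0236) and Rspo1 (adjusted p = 0.0423). Wls averaged 7.11 at E11.5, 5.56 at E10.5 and 6.26 at E12.5. Rspo1 averaged 4.88 at E11.5 and lay below the filter value at both other stages. It passed the filter only through E11.5, so the size of its difference is uncertain.

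Of 22 intracellular transducers, 2 rose between E12.5 and E11.5, Tle1 and Tle4, co-repressors that bind TCF factors, with Tle1 up 1.96 (SE 0.31, adjusted p = 0.00831) and Tle4 up 1.54 (SE 0.33, adjusted p = 0.0423). None of the 22 passed between E12.5 and E10.5 in limma. The median of this list was 0.32 between E12.5 and E11.5 and -0.59 between E11.5 and E10.5, beside 0.10 and -0.18 over all tested probe sets.

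Of 12 tested canonical Wnt targets, a list that holds Dkk1 itself, 2 passed between E12.5 and E11.5. Besides Dkk1 this was Ccnd1, the G1 cyclin D1, which rose by 1.89 (SE 0.34, adjusted p = 0.0161). Between E12.5 and E10.5 the called genes were Dkk1 and Fgf18, a growth factor, with Fgf18 at -1.41 (SE 0.26, adjusted p = 0.0115). Fgf18 read 3.36 and 3.67 at E12.5 and 3.94, 3.47 and 3.34 at E11.5, all below the filter value, against 4.42, 5.13 and 5.22 at E10.5. It passed the filter only through E10.5, so the size of its difference is uncertain. The direct feedback target Axin2 did not pass, at 6.37 and 6.05 at E12.5, against 6.47, 6.25 and 6.92 at E11.5 and 6.64, 6.32 and 6.06 at E10.5. Its difference between E12.5 and E11.5 was -0.34 (SE 0.28, adjusted p = 0.578), and that of Lef1, a TCF-family factor and target, was 0.01 (SE 0.23, adjusted p = 0.994).

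The genes whose pattern over the 8 arrays was most like that of a called member were sought among the other 13049 tested genes. By Pearson r of log2 signal, these were Pdgfa (0.968), Slc16a13 (0.966) and Abca4 (0.964) for Dkk1, and Flrt3 (0.982), Bola1 (0.975) and Pck2 (0.974) for Sfrp1. For Dkk3 they were Myb (0.997), Sash1 (0.994) and Dach1 (0.99), and for Sfrp2 they were Abca5 (0.988), Mbnl3 (0.982) and Ptpn4 (0.977). Dach1, a nuclear factor of the retinal determination network, averaged 10.58 at E12.5, 8.87 at E11.5 and 8.58 at E10.5. Since the arrays fall into stages and share their array-wide differences, these values only describe likeness.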

How the data were processed

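Labels state that total RNA of laser-captured tissue was amplified by 2 rounds of in vitro transcription and labelled with biotin, which favours 3 prime ends. The authors deposited 1 table of log2 values for 45101 probe sets on 8 arrays. The submitters' processing notes list GCOS 1.4. The method of summarizing probes and scaling arrays was not given in the sources used here. Their log2 scale was inferred from the range of values. No detection calls were used. Gene symbols came from the 2016 platform annotation, where 34958 probe sets had 1 symbol, 932 several and 9211 none, and 34754 matched RefSeq genes of GRCm38.p6.

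After 64 control probe sets were left out, limma 3.58.1 in R 4.3.3 was fitted to the deposited values by stage over all 8 arrays (5 residual degrees of freedom), with a variance trend. Tests were two-sided, adjusted by Benjamini-Hochberg over 27022 probe sets. Changes are differences of log2 means and are understated near the lower end. The named genes were all members, up to 6 called genes of each other Wnt list with Axin2 and Lef1, and the 3 most similar genes of each called member. Members and lists were chosen with earlier results of these data known. Normalization, pseudocounts, filters, variance trend, array weights, arrays fitted, replicate block, arrays left out and probe set choice were varied.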

Additional observations from a re-analysis of the deposited data

How the results depend on the processing

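Of 20 alternative settings, 1, leaving out E10.5 C and E11.5 A together, was chosen after seeing the data. The number of member genes called between E12.5 and E10.5 was 4, and 2 with the replicate letter as a block (replicate block), and 2 to 4 when single arrays were left out. Between E12.5 and E11.5 it was 3, and 0 to 3 with single arrays left out, 0 being without E12.5 B. Between E11.5 and E10.5 it was 0, also with each array left out. For E11.5 against the mean of the other stages it was 0, and 1 after quantile normalization and 0 to 1 with single arrays left out. In the F test it was 3, and 1 with the replicate block and 0 to 3 with single arrays left out. Array weights gave 1, 5, 4 and 6 called members for E11.5 minus E10.5, E12.5 minus E11.5, E11.5 against the others and the F test, but their fit did not converge and put a weight of 218 on E11.5 B, against at most 1.2 elsewhere. Of all 27022 probe sets that setting called 5017, 12520, 12051 and 14230 in the same order. Whether the letters pair the arrays could not be settled. Deviations from stage means of same-letter arrays correlated between -0.394 and 0.127. With 2 or 3 arrays a stage such deviations are tied to one another, so these values cannot decide it. The block took the Dkk3 change from E11.5 to an adjusted p of 0.0615 in limma. Over all probe sets the calls numbered 34, 492 and 1255 for E11.5 minus E10.5, E12.5 minus E11.5 and E12.5 minus E10.5, and single arrays left out gave 5 to 56, 114 to 905 and 209 to 1610. Quantile normalization moved the share of calls that were higher from 89% to 67.6% between E12.5 and E11.5, from 76.5% to 91.3% between E11.5 and E10.5 and from 26.2% to 62.2% for E11.5 against the others, with Sfrp1 then also called between E12.5 and E11.5, at -1.42 (adjusted p = 0.0255). The sign of Dkk1, Dkk3, Sfrp1 and Sfrp2 in both comparisons of E12.5 was the same in all 20 settings. The cause of lost calls was not tested.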
